A study of Homo sapiens with 12 samples.

Results

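Collagens, laminins and the other proteins of the basement membrane were followed in human brain microvascular endothelial cells with and without suppression of the glucose transporter Glut1, in control and in high glucose. Members were taken by name. They are the genes whose symbol is that of a collagen chain (COL4A1, for example) or of a laminin chain (LAMA, LAMB or LAMC), together with NID1, NID2, HSPG2, AGRN, FN1, SPARC, FBN1, FBN2, TNC and THBS1, where they reached at least 10 counts in at least 3 libraries. Of 23398 entries in the table, 65 matched by name and 48 met the count minimum, and all 48 also passed the filter of the tests. The 17 left out had at most 14 counts in any library, and among them were COL4A3, COL4A4, COL6A3, COL15A1, COL2A1 and LAMA1. At the edge of the minimum, the third-highest count was 10 for COL14A1 and 18 each for COL11A1 and COL9A3 inside it, and 8 each for COL4A3 and LAMC3 and 6 for LAMA1 outside it.

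The cells are commercially supplied endothelium of small brain vessels kept in culture, labelled HBMEC, and their messenger RNA was sequenced. All of them had been transfected for 48 h, with siGlut1, which targets the Glut1 gene SLC2A1, or with an siRNA that silences nothing, so that the comparison cells were transfected too. The 4 groups were siGlut1 in control glucose, non-silencing siRNA in control glucose, siGlut1 in high glucose and non-silencing siRNA in high glucose, with 3 libraries each except the last, of which 2 were used. The sources used here give neither the glucose concentrations nor the number of different siRNAs, and every library came from the same purchased cells, so the results describe 1 cell source.

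A basement membrane is the thin sheet of matrix on which endothelium rests. Laminins, trimers of an alpha, a beta and a gamma chain, form a network at the cell surface, collagen IV forms a separate covalent network, and nidogens and the heparan sulfate proteoglycans perlecan (HSPG2) and agrin (AGRN) tie them together. Around brain capillaries this sheet lies between endothelium, pericytes and astrocyte endfeet, and its endothelial laminins carry the chain encoded by LAMA4 or LAMA5.

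Deposited counts totalled 40135082 to 90536476 per library, with a median of 49686182, and the members took 2.1% to 3.88% of them. The siRNA target fell in both media. SLC2A1 had 8.56, 9.05 and 6.26 CPM (counts scaled to library size, with TMM factors for composition) with siGlut1 in control glucose, against 25.7, 23.7 and 22.2 CPM with non-silencing siRNA (log2 fold change -1.58 ± 0.129 SE, adjusted p = 0.000898). In high glucose it had 7.08, 7.19 and 6.38 CPM with siGlut1, against 21.2 and 20.7 CPM with non-silencing siRNA (log2 fold change -1.61 ± 0.14 SE, adjusted p = 9e-04). All adjusted p-values come from the quasi-likelihood test of edgeR, adjusted by Benjamini and Hochberg's method across the 14334 genes tested, and a gene was called below a threshold of 0.05. The column for replicate 2 of non-silencing siRNA in high glucose repeated the mean of replicates 1 and 3 in 23397 entries, within rounding, and was left out. Whether replicates were separate cultures is not stated, so a p-value reflects nothing but the spread among these libraries, which may be technical.

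In control glucose, replicate 3 of either siRNA differed from the others, and both bear on many values below. Of the 31 members at a mean of 1 RPKM or more (the deposited values, scaled to gene length and library size), 16 had their lowest CPM in non-silencing control replicate 3. In that library, 24 of the 31 lay below the mean of the other replicates of the group, and the median difference was -0.49 on the log2 scale. The same held for 21 of 31 in siGlut1 control replicate 3 (median -0.187) and for 25 of 31 in siGlut1 high replicate 3 (median -0.143). Some markers of cell types shifted in the same control-glucose libraries. KRT19 had 110 CPM in siGlut1 control replicate 3, against 38.2 and 38.7 CPM in the other siGlut1 control libraries, and 109 CPM in non-silencing control replicate 3, against 43.3 and 35.4 CPM in the other non-silencing control libraries. VWF, an endothelial marker, was lower there, at 892 CPM with siGlut1 and 861 CPM with non-silencing siRNA, against 1630 to 2550 CPM in the other control-glucose libraries. PRRX1, of the fibroblast list, had 9.48 CPM with siGlut1 and 6.2 CPM with non-silencing siRNA in these libraries, against 1.77 to 2.98 CPM in the other control-glucose libraries and 4.63 to 8.39 CPM in high glucose. COL1A2 and FAP, of the same list, were lower there. COL1A2 had 11.3 CPM with siGlut1, against 21.8 and 33.7 CPM, and 4.32 CPM with non-silencing siRNA, against 11.5 and 22.2 CPM. KRT8, listed with KRT19 as epithelial, was lower too, at 9.22 CPM with siGlut1, against 12.2 and 14.2 CPM. With non-silencing siRNA KRT8 had 12.4 CPM, against 16 and 17.6 CPM. Neither list moved as a whole. The part of these shifts in the members' values was not tested. For this reason, counts of calls are also given without both control-glucose replicates numbered 3. These libraries were singled out on values that include those of the members, and siGlut1 high replicate 3 was kept. Standard errors, p-values and counts without them therefore come from a choice made on the same values and are no independent support.

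All 12 listed endothelial markers were detected in every group. They summed to between 6870 and 8740 CPM with siGlut1 and between 6120 and 9240 CPM with non-silencing siRNA in control glucose, and to between 7060 and 8430 CPM with siGlut1 and between 7100 and 7260 CPM with non-silencing siRNA in high glucose. Of the pericyte and smooth muscle list, the sums of 5110 to 5710 CPM came almost wholly from MCAM, ANPEP and RGS5, while PDGFRB stayed at or under 0.363 CPM and CSPG4 at or under 0.202 CPM in every library. Of the fibroblast list, 3 genes are themselves members (COL1A1, COL1A2 and COL3A1). That list summed to between 28.2 and 45.1 CPM with siGlut1 and between 16.8 and 32.4 CPM with non-silencing siRNA in control glucose, and to between 31.9 and 53.9 CPM with siGlut1 and between 21.6 and 30 CPM with non-silencing siRNA in high glucose, with DPT at 0 in all groups. In the average over both media, 0 of its 9 tested genes passed the threshold or had an unadjusted p under 0.05. The astrocyte list summed to 347 to 446 CPM over all libraries, with GJA1, which endothelium also expresses, at 346 to 445 CPM and AQP4 at 0. The epithelial list summed to 276 to 389 CPM, with KRT18 at 231 to 286 CPM, KRT19 at 33.5 to 110 CPM and KRT8 at 9.22 to 17.6 CPM, while CDH1, KRT5 and KRT14 were at 0. In such bulk samples, fewer cells of a type and less RNA per cell cannot be told apart.

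Per length, the set spanned a wide range. The secreted glycoproteins led it. THBS1, a thrombospondin that binds matrix and cells and restrains vessel growth, averaged 1540 RPKM over the 11 libraries, the 25th highest level of all entries. SPARC, a collagen-binding glycoprotein, averaged 765 RPKM and fibronectin (FN1) 551 RPKM. The basement membrane proper followed, with HSPG2 at 255 RPKM, LAMB1 at 198, COL4A2 at 147, COL4A1 at 136, LAMA4 at 125, COL18A1 at 116 and LAMC1 at 111 RPKM. In all, 10 members reached 100 RPKM, 24 reached 10 RPKM and 31 reached 1 RPKM, and 17 stayed under 1 RPKM.

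Transcripts of the chains of endothelial laminins were present, though RNA levels do not show which trimers were assembled. LAMA4, LAMB1 and LAMC1 had 125, 198 and 111 RPKM, while LAMA5 averaged 14 RPKM and LAMB2, the other beta chain, 46 RPKM. LAMA4 exceeded LAMA5 per length 7.96 to 14.4 fold in siGlut1 libraries and 5.86 to 12.4 fold in non-silencing libraries. Of the laminin chains known from epithelial basement membranes, LAMB3 averaged 11.8 RPKM and LAMA3 2.25 RPKM. Of the collagen I chains, COL1A2 averaged 3.24 RPKM and COL1A1 0.0787 RPKM. Of collagen VI, COL6A1 averaged 3.36 RPKM and COL6A2 0.692 RPKM, and the third chain, COL6A3, had at most 4 counts in any library. COL9A3 overlaps TCFL5 and HSPG2 overlaps LDLRAD2 in the table, and the sources used here do not say whether counting used strand, so the level of COL9A3 in particular is uncertain, since TCFL5 had up to 1094 counts.

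**Figure D1:**
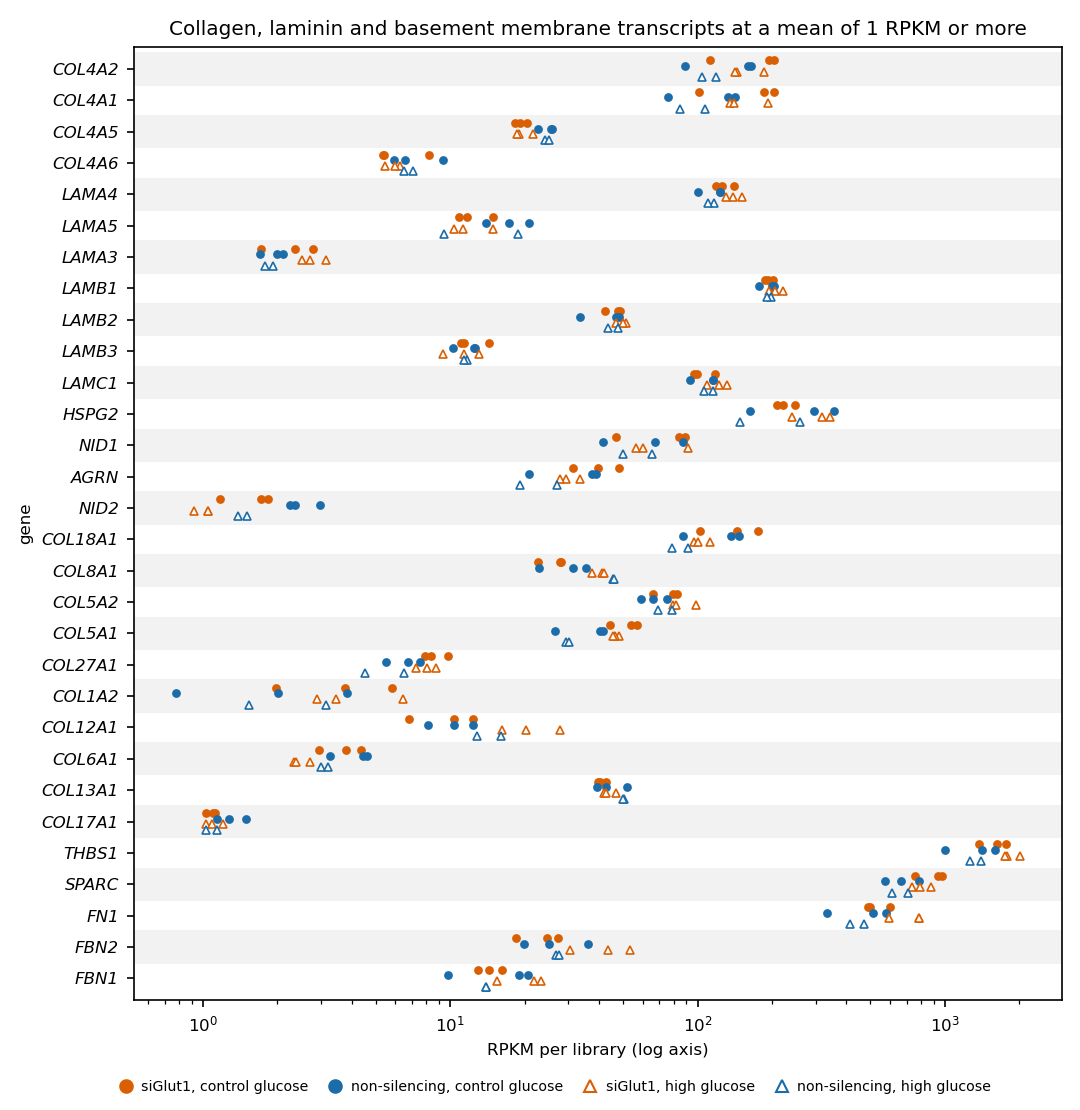
RPKM per library, on a log axis, of the reported members at a mean of 1 RPKM or more, with siGlut1 in orange, non-silencing siRNA in blue, control glucose as filled circles and high glucose as open triangles. THBS1, SPARC and FN1 lie highest, and NID2, COL8A1 and COL12A1 are among the rows where the media separate within each siRNA.

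With siGlut1, some collagen chains, LAMA3, SPARC and fibronectin were called higher and COL4A5 and NID2 lower, in a share not far from that of all genes. In the siGlut1 effect averaged over both media, 7 of 48 members rose (among them COL5A1, COL25A1, COL27A1, LAMA3, SPARC and FN1) and 2 fell (COL4A5 and NID2). Of all genes tested, 14.4% passed the threshold in this average, 7.93% as higher and 6.49% as lower. In both directions together, the share of members called, 9 of 48, was not far from the background. By direction, the share of members was above it for rises (7 of 48) and below it for falls (2 of 48), which was not tested. The members' median log2 fold change was 0.155, against -0.00447 over all genes. Without both control-glucose replicates numbered 3, 15 members were called, 11 higher and 4 lower, against 17.8% of all genes in either direction. The share by direction is not given for that fit. All 9 of the first count were among the 15. Leaving out single libraries gave between 4 and 11 members, with 4 without non-silencing high replicate 3 and 5 without non-silencing high replicate 1. Where single libraries are left out, here and below, the share of all genes is not given.

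Within each medium fewer members were called. In control glucose 0 of 48 passed (2.96% of all genes). At an unadjusted p under 0.05 there were 5 higher and 2 lower, against 9.01% and 8.39% of all genes, and DESeq2 called 3, which were COL5A1, COL4A5 and NID2. The share of all genes called by DESeq2 is not given here or below, so its counts cannot be set against the edgeR shares. In high glucose 2 of 48 rose, COL25A1 among them (4.11% of all genes in either direction, 2.46% as higher). At an unadjusted p under 0.05, 11 were higher and 3 lower, against 11.3% and 9.49% of all genes, and DESeq2 called 6. The log2 fold change was above 0 for 31 of 48 members, against 49.9% of all genes. The groups did not overlap in high glucose for 20 members that were higher and 7 that were lower with siGlut1, against 22.5% and 21.9% of all genes, and in control glucose for 4 and 3, against 10.9% and 9.59%. The median log2 fold change was 0.207 in high glucose, against -0.000497 over all genes, and 0.0355 in control glucose, against -0.00658. Without both control-glucose replicates numbered 3, the count was 12 in high glucose, of which 11 were higher, against 11.8% of all genes, and 1 in control glucose (COL5A1), against 1.74%. With single libraries left out, the count in high glucose was 0 without siGlut1 high replicate 2 or 3 or without either non-silencing high library, 1 without siGlut1 control replicate 1 or non-silencing control replicate 1, 3 and 4 without siGlut1 control replicates 2 and 3, and 7 without non-silencing control replicate 3. In control glucose it was 1 (COL4A5) without siGlut1 high replicate 1.

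**Figure D2:**
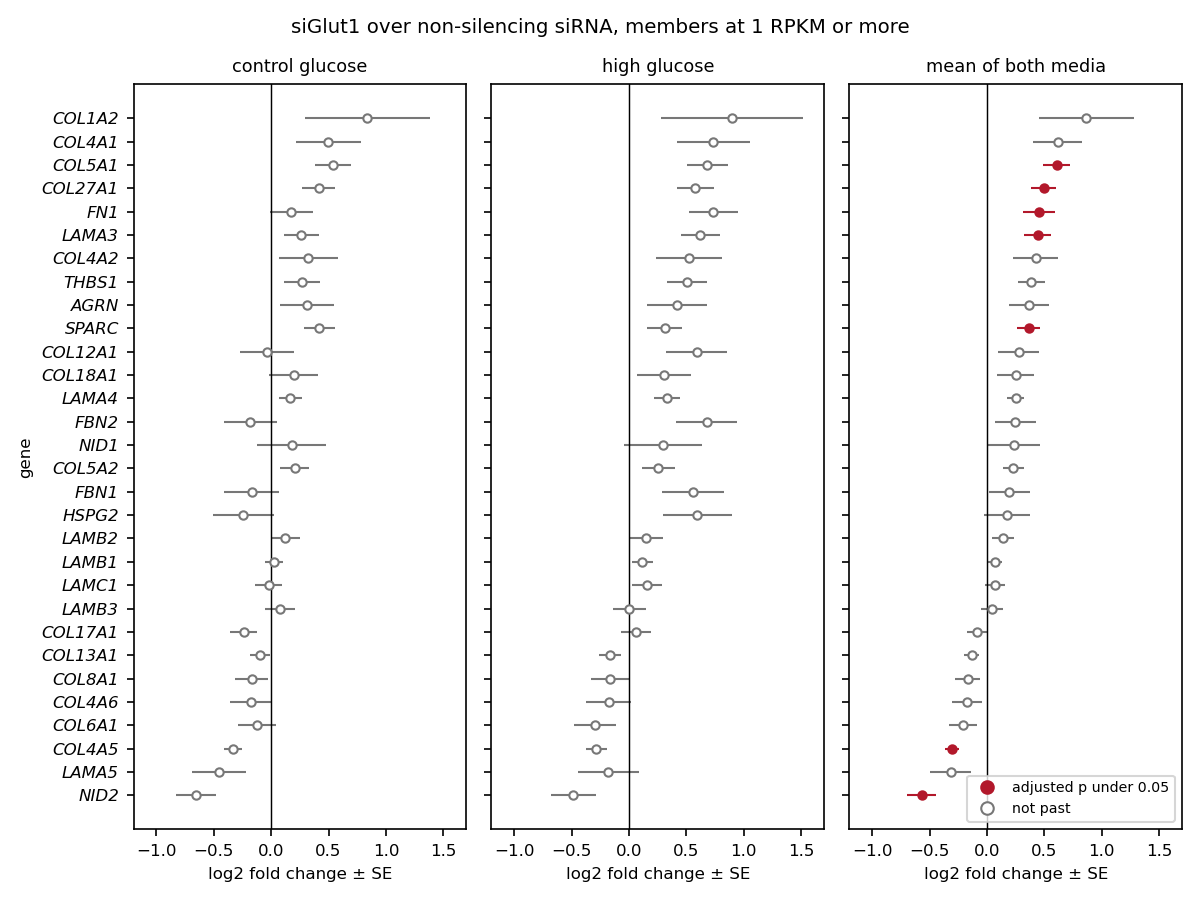
Log2 fold change (siGlut1 over non-silencing siRNA) with its standard error for the reported members at 1 RPKM or more, in control glucose, in high glucose and averaged over both, ordered by the average. Filled red points passed an adjusted p of 0.05. In the average, COL5A1, COL27A1, FN1, LAMA3 and SPARC lie above 0 and COL4A5 and NID2 below it.

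COL5A1 showed the clearest rise. It encodes the main chain of collagen V, which starts and sizes collagen fibrils. Its level was 519, 483 and 395 CPM with siGlut1 in control glucose, against 358, 375 and 230 CPM with non-silencing siRNA. In high glucose it was 433, 415 and 409 CPM with siGlut1, against 257 and 265 CPM with non-silencing siRNA. The groups did not overlap in either medium. Averaged over both media, the log2 fold change was 0.61 ± 0.118 SE (adjusted p = 0.00648), and the call held in 21 of 21 alternatives. COL5A2, which encodes the partner chain, had a log2 fold change of 0.23 ± 0.0941 SE (adjusted p = 0.128) and did not pass. Per length, COL5A2 over COL5A1 was 1.4 to 1.54 with siGlut1 and 1.65 to 2.23 with non-silencing siRNA in control glucose, and 1.72 to 2.05 with siGlut1 and 2.31 to 2.69 with non-silencing siRNA in high glucose.

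Of the other fibrillar collagens, COL27A1, known from cartilage, rose by 0.49 ± 0.108 SE on the log2 scale in the average (adjusted p = 0.0114). It had 47.4, 49.7 and 57.7 CPM with siGlut1 and 39.9, 33 and 43.1 CPM with non-silencing siRNA in control glucose, and 43.1, 47.9 and 51.9 CPM with siGlut1 and 26.2 and 37.8 CPM with non-silencing siRNA in high glucose. The groups were apart in both media. Its call was lost without non-silencing high replicate 1 (highest adjusted p over the alternatives 0.0563). COL1A2 had the highest averaged log2 fold change of the members at 1 RPKM or more, 0.87, but its standard error was 0.413 (adjusted p = 0.19). It ranged from 11.3 to 37.1 CPM over the siGlut1 libraries and from 4.32 to 22.2 CPM over the non-silencing libraries, and the groups overlapped in both media.

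Of the laminin alpha chains LAMA3, known from epithelial basement membranes, was called. LAMA3 rose by 0.44 ± 0.115 SE in the average (adjusted p = 0.0265), a call lost without siGlut1 control replicate 1, siGlut1 high replicate 2 or either non-silencing high library (highest adjusted p 0.109). It had 27.1, 19.6 and 31.6 CPM with siGlut1 and 22.4, 19.5 and 23.2 CPM with non-silencing siRNA in control glucose, where the groups overlapped, and 31, 35.7 and 28.7 CPM with siGlut1 and 19.8 and 21.5 CPM with non-silencing siRNA in high glucose, where they did not. LAMB3, a beta chain that pairs with it, had an averaged log2 fold change of 0.04 ± 0.0958 SE (adjusted p = 0.823), and none of the 4 beta chains was called.

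The laminin chains that are abundant in endothelium moved less. LAMA4 had 1130, 1000 and 938 CPM with siGlut1 and 970, 989 and 769 CPM with non-silencing siRNA in control glucose, and 1200, 1100 and 1040 CPM with siGlut1 and 910 and 860 CPM with non-silencing siRNA in high glucose. Its groups overlapped in control glucose and not in high glucose. The change averaged over both media was 0.25 ± 0.0777 SE on the log2 scale, just short of the threshold (adjusted p = 0.0537, past it in 9 of 21 alternatives). LAMA5 had 133, 143 and 180 CPM with siGlut1 and 250, 212 and 164 CPM with non-silencing siRNA in control glucose, and 127, 181 and 137 CPM with siGlut1 and 112 and 224 CPM with non-silencing siRNA in high glucose. The groups overlapped in both media, and the averaged log2 fold change was -0.32 ± 0.178 SE (adjusted p = 0.263). LAMC1 had an averaged log2 fold change of 0.07.

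SPARC and fibronectin rose in the average. SPARC had 3630, 3730 and 2880 CPM with siGlut1 and 2520, 3010 and 2120 CPM with non-silencing siRNA in control glucose, and 3350, 2800 and 3040 CPM with siGlut1 and 2660 and 2280 CPM with non-silencing siRNA in high glucose. The groups overlapped in control glucose and not in high glucose. The averaged log2 fold change was 0.36 ± 0.101 SE (adjusted p = 0.0332). It was lost without siGlut1 control replicate 1 or 2, non-silencing control replicate 1, siGlut1 high replicate 1 or 3, or either non-silencing high library (14 of 21 alternatives passed, highest adjusted p 0.142). FN1 had 5800, 4790 and 4630 CPM with siGlut1 and 5470, 4930 and 3080 CPM with non-silencing siRNA in control glucose, and 7480, 7460 and 5690 CPM with siGlut1 and 3860 and 4410 CPM with non-silencing siRNA in high glucose. Its groups overlapped in control glucose and not in high glucose, at a log2 fold change of 0.73 ± 0.211 SE there (adjusted p = 0.077) and 0.18 ± 0.185 SE in control glucose (adjusted p = 0.677), and the difference between these effects was not called. Its average, 0.46 ± 0.14 SE, stood at the threshold itself (adjusted p = 0.04999), and 11 of 21 alternatives passed (adjusted p 0.0094 to 0.178). Without non-silencing control replicate 3 the value in control glucose was -0.0348. THBS1, at 0.39 ± 0.118 SE in the average, was just outside (adjusted p = 0.0505).

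COL25A1, a transmembrane collagen found in the amyloid plaques of Alzheimer's disease, had the largest fold change of the set on very few reads. Every count in the libraries used is even, so each fragment may have been counted as 2. It had 18, 40 and 30 counts with siGlut1 and 14, 18 and 20 counts with non-silencing siRNA in control glucose, and 26, 60 and 54 counts with siGlut1 and 8 and 4 counts with non-silencing siRNA in high glucose. The groups were apart in high glucose and overlapped in control glucose when scaled for depth. The log2 fold change was 2.54 ± 0.514 SE in high glucose (adjusted p = 0.0231) and 1.55 ± 0.325 SE in the average (adjusted p = 0.00963). The call in high glucose was lost without siGlut1 high replicate 2 or 3 or either non-silencing high library (highest adjusted p 0.198), and that in the average without non-silencing high replicate 3 (0.0599). Its mean level was 0.0674 RPKM.

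COL4A5 and NID2 fell. COL4A5, a chain of the collagen IV network that is altered in Alport syndrome, had 129, 142 and 132 CPM with siGlut1 and 155, 181 and 171 CPM with non-silencing siRNA in control glucose. In high glucose it had 151, 131 and 129 CPM with siGlut1 and 163 and 170 CPM with non-silencing siRNA. The groups did not overlap in either medium. Over both media the log2 fold change averaged -0.31 ± 0.0609 SE (adjusted p = 0.00725), and 21 of 21 alternatives kept the call. NID2, which encodes nidogen-2, had 9.29, 9.86 and 6.22 CPM with siGlut1 and 12.5, 16 and 11.6 CPM with non-silencing siRNA in control glucose, and 5.67, 5.64 and 4.94 CPM with siGlut1 and 7.25 and 7.9 CPM with non-silencing siRNA in high glucose. The groups were apart in both media, and the averaged log2 fold change was -0.57 ± 0.13 SE (adjusted p = 0.0143, lost only without non-silencing high replicate 3, at 0.0639, of 21 alternatives). NID1, the more abundant nidogen per length at 67.2 RPKM against 1.65 RPKM for NID2, had an averaged log2 fold change of 0.24 ± 0.227 SE (adjusted p = 0.53).

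**Figure D3:**
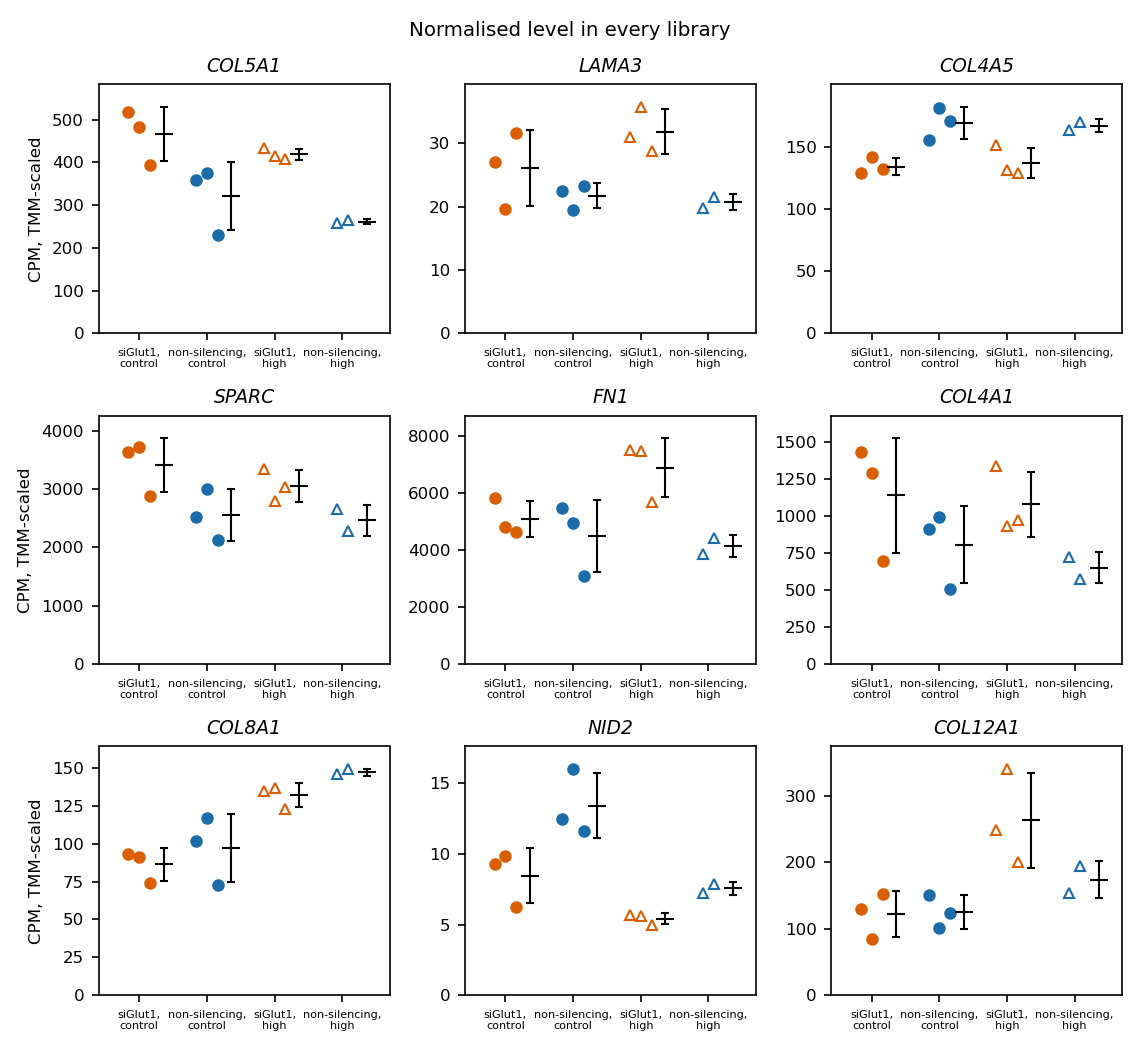
CPM (TMM-scaled) in every library for 9 members, with siGlut1 in orange, non-silencing siRNA in blue, control glucose as filled circles and high glucose as open triangles, and the mean and SD of each group in black (3 libraries a group, but 2 for the non-silencing siRNA in high glucose). COL5A1 lies higher and COL4A5 and NID2 lower with siGlut1 in both media, and within each siRNA COL8A1 lies higher and NID2 lower in high glucose.

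Collagen IV of most basement membranes is built of the chains of COL4A1 and COL4A2, 2 genes that start back to back and share the stretch between them as a promoter. The table places COL4A1 at chr13:110801310-110959496 and COL4A2 at chr13:110959631-111165373 (hg19). COL4A5 and COL4A6 form a second such pair on the X chromosome. These stretches are shown because the variation of the chains within each pair is compared after them. In RefSeq (GRCh38.p14) the starts of COL4A1 and COL4A2 are 127 bases apart, and the sequence between them is chr13:110307158-110307283 on the + strand, which reads towards COL4A2. The starts of COL4A5 and COL4A6 are 380 bases apart, and the 250 bases before COL4A5 on the + strand, chrX:108439588-108439837, are given. Capitals mark CCAAT and GGGCGG (a GC box) on either strand.
COL4A1 and COL4A2: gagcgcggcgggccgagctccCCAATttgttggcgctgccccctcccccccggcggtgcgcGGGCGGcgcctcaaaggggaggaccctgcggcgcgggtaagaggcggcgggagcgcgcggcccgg
COL4A5: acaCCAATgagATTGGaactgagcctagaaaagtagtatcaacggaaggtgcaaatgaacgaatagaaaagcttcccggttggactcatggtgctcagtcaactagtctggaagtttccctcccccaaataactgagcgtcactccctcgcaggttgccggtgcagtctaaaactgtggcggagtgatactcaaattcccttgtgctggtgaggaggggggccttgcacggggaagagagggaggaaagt

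The stretch between COL4A1 and COL4A2 held 1 CCAAT and 1 GC box, and that before COL4A5 held 2 CCAAT and 0 GC boxes. CCAAT and ATTGG, its other strand, do not overlap GGGCGG or CCGCCC. Of 27305 promoters in the RefSeq table, 21.9% held a CCAAT and 34.6% a GC box within 126 bases before the start, and 33% and 42.3% held them within 250 bases. Of the members, 38 had an entry, and 12 held a CCAAT and 26 a GC box within 250 bases. A match is a description of the letters.

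The chains of the first pair varied together. COL4A1 had 1430, 1290 and 699 CPM with siGlut1 and 913, 996 and 510 CPM with non-silencing siRNA in control glucose, and 1340, 936 and 977 CPM with siGlut1 and 725 and 578 CPM with non-silencing siRNA in high glucose. COL4A2 had 1380, 1300 and 742 CPM with siGlut1 and 1060, 1100 and 573 CPM with non-silencing siRNA in control glucose, and 1240, 962 and 944 CPM with siGlut1 and 778 and 683 CPM with non-silencing siRNA in high glucose. In control glucose the replicates numbered 3 were the lowest of both genes with either siRNA. That of siGlut1, at 699 CPM for COL4A1 and 742 CPM for COL4A2, made the groups overlap. In high glucose the groups were apart. Over the 11 libraries, Pearson's r was 0.983 and Spearman's rho 0.955 (permutation p = 1e-05, the smallest the resamples can give, and 4e-05; 2e-05 and 8e-05 adjusted over the 2 pairs). Pearson's r was 0.967 without the 2 libraries farthest from the median and 0.991 for deviations from the group means. The permutations moved values freely over the 11 libraries, so their p-values take no account of the groups or of the replicates numbered 3. Some other matrix genes were also lowest in the control-glucose replicates numbered 3. NID1 had 290 CPM with siGlut1 and 251 CPM with non-silencing siRNA there, against 418 to 557 CPM in the other control-glucose libraries. PXDN had 858 and 693 CPM, against 932 to 1210 CPM. Others were highest there. COL4A6 had 59.1 CPM with siGlut1, against 39.6 and 39.1 CPM, and 65.4 CPM with non-silencing siRNA, against 42.5 and 48 CPM. COL27A1, LAMA3 and COL13A1 were also highest of their groups in these libraries. Correlations of COL4A1 with genes outside the pair were not taken, so the value is not shown to be particular to the pair. For COL4A5 and COL4A6, r was 0.355 and rho 0.545 (permutation p = 0.287 and 0.0868, adjusted 0.287 and 0.0868), 0.288 without the 2 farthest libraries and -0.00867 about the group means. COL4A5 varied less about its group means than COL4A1 (SD 0.0991 against 0.445 on the log2 scale), so the pairs are not compared at like spread.

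Neither chain of the first pair passed the threshold in the fit without a replicate block. Averaged over both media, the log2 fold change was 0.62 ± 0.212 SE for COL4A1 (adjusted p = 0.0755) and 0.42 ± 0.193 SE for COL4A2 (adjusted p = 0.17). Without both control-glucose replicates numbered 3 they were 0.61 ± 0.111 SE (adjusted p = 0.00494) and 0.41 ± 0.0848 SE (adjusted p = 0.00886). Both genes were lowest of their groups in the libraries left out, so the smaller standard errors follow in part from that choice. The ratio of COL4A1 to COL4A2, per length, was 0.995, 0.951 and 0.904 with siGlut1 and 0.828, 0.869 and 0.853 with non-silencing siRNA in control glucose. In high glucose it was 1.03, 0.933 and 0.992 with siGlut1 and 0.893 and 0.811 with non-silencing siRNA. The ratio was thus higher in every siGlut1 library than in every non-silencing library, the replicates numbered 3 included. It was looked at after the values of both genes were known and is given without a test. COL4A6 had an averaged log2 fold change of -0.18 ± 0.131 SE (adjusted p = 0.404).

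**Figure D4:**
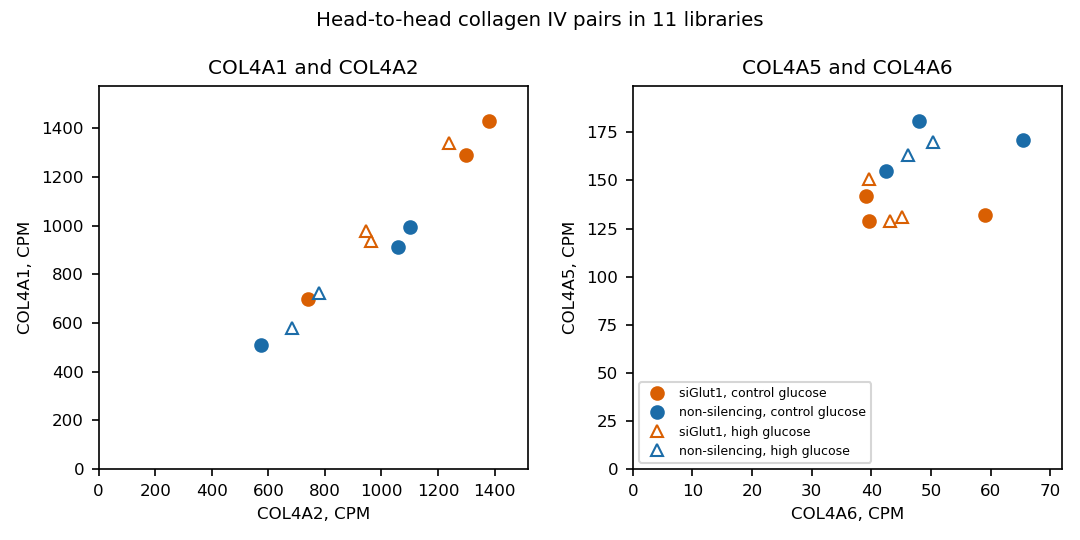
CPM of COL4A1 against COL4A2 and of COL4A5 against COL4A6 in the 11 libraries, with siGlut1 in orange, non-silencing siRNA in blue, control glucose as filled circles and high glucose as open triangles. COL4A1 and COL4A2 lie along a line (r = 0.983 on log2 CPM), with COL4A1 higher relative to COL4A2 in the siGlut1 libraries. COL4A5 and COL4A6 do not (r = 0.355 on log2 CPM). COL4A5 varied less, with an SD about the group means of 0.0991 on the log2 scale, against 0.445 for COL4A1.

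COL8A1 was higher and NID2 lower in high glucose in the average over both siRNAs. These were the 2 of 48 members called, against 0.412% of all genes (0.251% higher and 0.16% lower). COL8A1 encodes a short-chain collagen that endothelial cells secrete into the matrix below them. It had 135, 137 and 123 CPM in high glucose and 93.2, 91.5 and 74.1 CPM in control glucose with siGlut1, and 146 and 149 CPM in high glucose and 102, 117 and 72.6 CPM in control glucose with non-silencing siRNA. Every high-glucose library lay above every control-glucose library of the same siRNA. The averaged log2 fold change was 0.61 ± 0.109 SE (adjusted p = 0.0464). NID2 had 5.67, 5.64 and 4.94 CPM in high glucose and 9.29, 9.86 and 6.22 CPM in control glucose with siGlut1, and 7.25 and 7.9 CPM in high glucose and 12.5, 16 and 11.6 CPM in control glucose with non-silencing siRNA. Here too the media were apart with either siRNA, and the averaged log2 fold change was -0.73 ± 0.132 SE (adjusted p = 0.0464). Both calls were near the threshold and held in 12 of 21 alternatives. With single libraries left out, 0 members were called in several cases (without siGlut1 control replicate 1 or 2, non-silencing control replicate 1, any siGlut1 high library or either non-silencing high library), and 1 without siGlut1 control replicate 3 (NID2) or non-silencing control replicate 2 (COL8A1). Over the alternatives, they had adjusted p from 4.4e-05 to 0.232 for COL8A1 and from 4.56e-05 to 0.276 for NID2, and neither changed direction.

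Other members came near in the average. COL3A1, a fibrillar collagen of mesenchymal cells, had 1.05 ± 0.222 SE (adjusted p = 0.0715) at a mean of 0.19 RPKM. COL12A1, a collagen that coats fibrils, had 249, 340 and 200 CPM in high glucose and 129, 83.9 and 152 CPM in control glucose with siGlut1, and 154 and 195 CPM in high glucose and 151, 101 and 123 CPM in control glucose with non-silencing siRNA. Its groups were apart with either siRNA, and the averaged log2 fold change was 0.80 ± 0.175 SE (adjusted p = 0.0813). COL6A1 had -0.50 ± 0.124 SE (adjusted p = 0.108) and COL18A1, from which endostatin is cut, -0.51 ± 0.16 SE (adjusted p = 0.181). DESeq2 called 6 members in this average, the pair above and COL3A1, COL12A1, COL6A1 and COL18A1. Its share of all genes is not given, so the 6 cannot be set against the share of the edgeR fit.

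With each siRNA taken alone, 0 of 48 members were called in the edgeR fit. With siGlut1 0.014% of all genes were called, 5 members were higher and 2 lower at an unadjusted p under 0.05 (7.96% and 7.23% of all genes), and DESeq2 called 4, which were COL12A1, COL6A1, COL8A1 and NID2. With non-silencing siRNA 0% of all genes were called, 2 members were higher and 5 lower at an unadjusted p under 0.05 (2.18% and 3.22% of all genes), and DESeq2 called NID2. These counts depended on the control-glucose replicates numbered 3. Without both, 12 members were called in the average, 4 higher and 8 lower (18.1% of all genes), 7 with siGlut1 (5.16%) and 3 with non-silencing siRNA (0.337%). The 12 were COL8A1, COL12A1, COL3A1 and COL13A1 as higher and NID2, COL18A1, COL6A1, COL6A2, AGRN, COL5A1, COL4A1 and COL4A2 as lower. The averaged log2 fold change of COL18A1 was then -0.70 ± 0.0746 SE (adjusted p = 0.0013), and that of COL4A1 -0.44 ± 0.11 SE (adjusted p = 0.0237) in place of -0.19 ± 0.21 SE (adjusted p = 0.677). Both genes were lowest of their groups in the libraries left out, a choice made on the same values. Without non-silencing control replicate 3 alone, 8 members were called in the average and 1, COL8A1, with siGlut1.

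The siGlut1 effect was not shown to differ between the media for any member. In the interaction, 0 of 48 members and 0% of all genes were called, and 2 members, COL25A1 and FBN2, had an unadjusted p under 0.05, both with the larger siGlut1 effect in high glucose (1.87% of all genes were higher and 0.879% lower). DESeq2 called 0, and the alternative without both replicates numbered 3 also 0. FBN2, a fibrillin of elastic microfibrils, had an interaction of 0.86 ± 0.353 SE (unadjusted p = 0.0327, adjusted p = 0.999). Its siGlut1 effect was 0.68 ± 0.266 SE in high glucose and -0.18 ± 0.234 SE in control glucose. HSPG2 and FBN1 had effects of 0.59 and 0.56 in high glucose and of -0.25 and -0.17 in control glucose, with standard errors of 0.24 to 0.302, and their interactions had unadjusted p = 0.0601 and 0.0687. HSPG2, FBN1 and FBN2 are among the longest members, at 14288, 11695 and 10724 bases.

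Length moved with these values. The members had a median gene length of 6307 bases in the table, against 3033 for all genes tested, and 38 of 48 lay in the top length quartile, which starts at 4677 bases. Across all 14334 genes, Spearman's rho of the siGlut1 log2 fold change with length was 0.24 in high glucose and -0.06 in control glucose, where genes are not independent replicates. It was 0.38 for high over control glucose with siGlut1, 0.038 with non-silencing siRNA and 0.39 for the interaction. In that quartile the median siGlut1 log2 fold change in high glucose was 0.0909 over all genes and 0.285 over the 38 members. With each library's trend on length taken out, the members' median in high glucose was 0.102, against 0.207 before, and 0.103 in the average, against 0.155 before. The averaged siGlut1 calls then numbered 11 (15.1% of all genes) and included all 9 of the first count, with LAMA4 and THBS1 added. The FN1 value in that average was 0.40 ± 0.118 SE (adjusted p = 0.0409), and the calls of COL8A1 and NID2 for high glucose also stood (2 members, 0.349% of all genes). In high glucose the siGlut1 calls were COL25A1 as higher and COL4A5 as lower, against 3.62% of all genes. Whether length accounts for the rest of the members' shift was not tested.

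**Figure D5:**
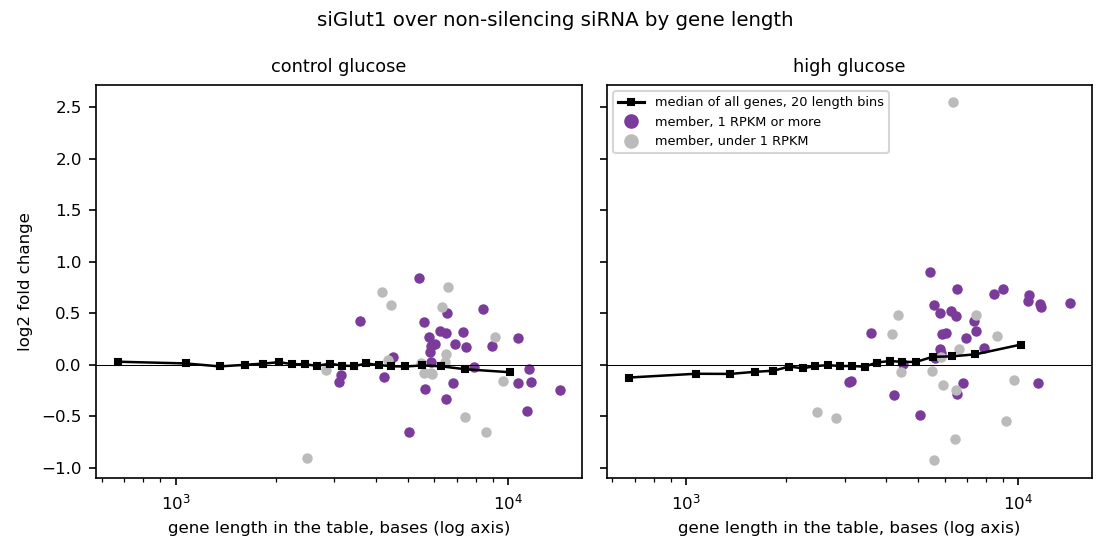
Log2 fold change (siGlut1 over non-silencing siRNA) against gene length on a log axis, in control glucose and in high glucose. Black squares are medians of all tested genes in 20 length bins, and points are the 48 members, purple at 1 RPKM or more and grey below it. In high glucose the black line climbs with length and most purple points lie above it. The median over all members of the top length quartile, purple and grey, was 0.285. Over all lengths it was 0.309 for purple and -0.0726 for grey points.

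Many members varied widely between replicates. Their median residual SD about the group means was 0.344 on the log2 scale, against 0.155 for all genes tested. This contrast is not matched for level. The largest values were those of COL9A3 (1.14), COL14A1 (0.929) and COL11A1 (0.889), all under 1 RPKM. COL1A2 (0.872), NID1 (0.475), COL4A1 (0.445), HSPG2 (0.422) and COL4A2 (0.407) were at or above the 99th percentile of genes of like level. LAMB1, at 0.0961, and COL4A5, at 0.0991, were near the middle of theirs.

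Genes that act on or bind the matrix moved with siGlut1 in part. The lists were chosen with earlier results of these data known, and the counts are over all genes tested in the averaged siGlut1 effect, where 14.4% of all genes passed. Of 22 enzymes that fold, modify or trim collagen, 3 rose and 2 fell. PLOD2, a lysyl hydroxylase of collagen telopeptides, fell by 0.44 ± 0.121 SE on the log2 scale (adjusted p = 0.0338), and CRTAP, a partner of prolyl 3-hydroxylase, fell by 0.38 ± 0.0539 SE (adjusted p = 0.00134). TLL1, a protease that trims procollagen, rose by 0.37 ± 0.0831 SE and PLOD3, another lysyl hydroxylase, by 0.30 ± 0.0617 SE (adjusted p = 0.0133 and 0.00913). CRTAP was lower in each medium alone as well, at -0.34 in control glucose and -0.43 in high glucose (adjusted p = 0.0312 and 0.0187).

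Of 21 matrix receptors, 6 rose and 1 fell. ITGA6, the alpha subunit of laminin-binding integrins, rose by 0.51 ± 0.0594 SE (adjusted p = 0.000484), and ITGB4, which pairs with it in hemidesmosomes, fell by 0.85 ± 0.202 SE (adjusted p = 0.0174). ITGA5, the fibronectin receptor subunit, rose by 0.37 ± 0.0546 SE (adjusted p = 0.00167). ITGA6 and ITGA5 were also called in each medium. SDC1, a cell surface proteoglycan, rose by 0.34 ± 0.0802 SE (adjusted p = 0.0176).

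Of 22 TGF-beta ligands, receptors and targets, a pathway known to induce matrix genes, 6 rose and 0 fell at the threshold, and 9 were higher and 1 lower at an unadjusted p under 0.05, against 15.1% and 14.4% of all genes. The ligand TGFB2 rose by 0.73 ± 0.123 SE (adjusted p = 0.00343) and the receptor TGFBR1 by 0.55 ± 0.0847 SE (adjusted p = 0.00204). PMEPA1, a target that dampens the pathway, rose by 0.59 ± 0.111 SE and CTGF, a matricellular target, by 0.35 ± 0.0684 SE (adjusted p = 0.00562 and 0.0073). The list's median log2 fold change was 0.0478, near that of all genes.

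Of 26 other basement membrane and crosslinking genes, 4 rose and 1 fell. LOXL1, a lysyl oxidase of elastic fibres, rose by 0.61 ± 0.0939 SE, PXDN, which makes the sulfilimine bonds of collagen IV, by 0.39 ± 0.113 SE, and FRAS1, a matrix protein of epithelial basement membranes, by 0.68 ± 0.182 SE (adjusted p = 0.00215, 0.0418 and 0.0299). LOXL4 fell by 0.69 ± 0.151 SE (adjusted p = 0.012). In the average effect of high glucose, LOX rose by 0.34 ± 0.0535 SE and LOXL1 fell by 0.64 ± 0.0939 SE (adjusted p = 0.0349 and 0.0234), and TLL1 rose by 0.68 ± 0.0822 SE (adjusted p = 0.0122). LOXL1 was thus higher with siGlut1 and lower in high glucose.

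Other genes moved with siGlut1 beside these. Of the endothelial markers 2 of 12 rose in the average (KDR and TEK), and of the 8 tested pericyte and smooth muscle markers ANPEP and MCAM rose and RGS5 fell. Of 15 interferon-stimulated genes listed, 14 rose in the average, with a median log2 fold change of 1.5, and 13 and 12 were called in control and in high glucose. Their part in the values of the members was not tested.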

How the data were processed

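Messenger RNA of 12 libraries was sequenced. The deposited table holds counts per gene, which the authors made against hg19, per the submitters' processing notes, and RPKM values (scaled to gene length and library size), per the file headers. The notes also name DESeq2. The aligner, counter, annotation and strand setting are not stated in the sources used here, and the labels name a stranded and a SMARTER kit without saying which library used which. All counts in the 11 columns used are even, so a fragment may stand for 2 counts (both mates of a pair), in the count minimum too. The sources used here do not say.

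Members and lists were chosen with earlier results of these data known. The count of each gene was used as deposited, without rounding, and filterByExpr and TMM factors (0.975 to 1.03) preceded edgeR's quasi-likelihood test (edgeR 4.0.16, limma 3.58.1, R 4.3.3) in 1 fit of 4 groups with 7 residual degrees of freedom. P-values are two-sided and adjusted by Benjamini-Hochberg. Fold changes are those of edgeR's test at its default settings, and a standard error is the absolute log2 fold change over the square root of F. Log2 CPM values, used for correlations, library distances, residual spread and length trends, use a prior count of 2. The averaged effects are the mean of both media or of both siRNAs. Named were the members called (at most 12 per direction), COL4A1, COL4A2, COL8A1, NID2 and LAMA4, the most abundant member of a role with no call, and up to 4 called genes per other list. COL5A2, LAMB3, NID1, COL4A6, COL1A2, THBS1, LAMA5, COL3A1, FBN1 and FBN2 were added after their values were seen. The scripts were tested on simulated data. Alternatives were DESeq2 1.42.0, its size factors, other filters, only the groups compared, a replicate block, removal of each library's length trend, libraries left out, all 12 columns, and counts halved. Results for 1 member are not reported here. RefSeq promoters were matched by symbol. Libraries of 40135082 to 90536476 counts leave counting error small for members above 1 RPKM and large for those below.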

Additional observations from a re-analysis of the deposited data

How the results depend on the processing

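Of 48 members, the number called by the siGlut1 effect in control glucose was 0, against 3 with DESeq2, 1 with the length trend removed, 1 without both control-glucose replicates numbered 3, 2 with all 12 columns and 1 with counts halved (an alternative chosen after seeing the data). In high glucose it was 2, against 6 with DESeq2, 1 when genes needed 1 CPM in 6 libraries, 10 with only the groups compared, 12 without both replicates numbered 3 and 8 with all 12 columns. For high over control glucose with non-silencing siRNA, 0 became 1 with DESeq2 and 3 without both replicates numbered 3, and with siGlut1 0 became 4 and 7. The averaged siGlut1 effect had 9, against 15 without both replicates numbered 3, and the averaged high glucose effect had 2, against 6 with DESeq2, 12 without both replicates numbered 3 and 5 with all 12 columns. With single libraries left out, the counts ranged from 0 to 1 and from 0 to 7 for siGlut1 in control and in high glucose, stayed at 0 for high glucose with non-silencing siRNA, and ranged from 0 to 1 for high glucose with siGlut1, from 4 to 11 for the averaged siGlut1 effect and from 0 to 8 for the averaged high glucose effect. Shares of all genes are given above only for the main fit, the fits without both replicates numbered 3 and some with the length trend removed. For the other alternatives, a move of the members cannot be told from a move of all genes. The interaction stayed at 0 in all alternatives run. The only reversal among the named members was FN1 for siGlut1 in control glucose, at -0.0348 without non-silencing control replicate 3 (range to 0.34 over the libraries left out), a value that passed in none of its alternatives.

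Same-numbered libraries of the control-glucose groups deviated together for replicates 2 and 3 (correlations of 0.35 and 0.54, against 0.094 for replicate 1), but over all pairs of groups the correlations ran from -0.25 to 0.54 and no label ties the numbers to shared cultures, so the numbers were not taken to pair the samples. With a replicate block, 4, 3, 12 and 2 members were called for siGlut1 in control glucose, in high glucose, on average, and for high glucose on average, and with the length trend also removed 4, 4, 12 and 2. The shares of all genes in the block fits are not given, so these counts have no background beside them. With the block COL4A1 was called in the averaged siGlut1 effect (0.58 ± 0.13 SE, adjusted p = 0.0152 by edgeR, against 0.0755 without it), and COL4A2 was not (0.38 ± 0.121 SE, adjusted p = 0.0569). A fit of only the groups compared cannot be made for the interaction or the averages, which use all groups. The causes of these shifts were not tested. Few libraries and, for COL25A1, few reads limit these counts.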
